A study of Mus musculus with 24 samples.

Results

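Whole brain and liver of the same mouse strains were compared on a custom exon array, and the 12 arrays of these 2 tissues form the part of the series described here, out of 24 arrays in all. Members were taken by the tissue word in the sample title. That gave 6 brain and 6 liver samples, and 1 brain title misspells the word as "Brian". The samples fell into 4 groups of 3 biological replicates: congenic brain, B6 brain, congenic liver and B6 liver. Congenic mice belong to the B6.S-2 line, in which C57BL/6J mice carry a distal part of chromosome 2 from SPRET/Ei, a strain of Mus spretus, and B6 mice are C57BL/6J. The labels give no age or sex for a sample, and they mention both chow and a high fat diet without tying either to a sample. The treatment field calls every sample congenic, so genotype rests on the titles. The array covers few genes: 341 were measured, 333 of them on chromosome 2, where all but B2m lie between positions 139868905 and 167412296, and 8 elsewhere.

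Neurons hold proteins that move and fuse synaptic vesicles, clear chloride and exchange calcium, while hepatocytes run methionine and lipid metabolism and secrete plasma proteins under regulators such as Hnf4a, a nuclear receptor of hepatocyte identity. Both tissues also hold endothelial and resident immune cells, and the antigen-presenting light chain encoded by B2m sits on most nucleated cells but is known to be scarce on neurons. Nearly all genes measured here lie in 1 segment of a chromosome, so the comparison shows which residents of that segment differed between the tissues.

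All values are log2 of background-corrected and quantile-normalized probe intensity. A difference is the mean of the 6 brain arrays minus the mean of the 6 liver arrays, with genotype as a covariate in limma. It passed where the Benjamini-Hochberg adjusted p was under 0.05 over all genes or all exon features. The array's own precision is limited by the number of arrays, 6 per tissue. Before normalization the median intensity of an array lay between 298 and 1237 in brain and between 232 and 741 in liver, so the tissues overlapped in brightness. The raw log2 values of brain arrays correlated with each other at 0.915 to 0.964 and those of liver arrays at 0.915 to 0.941, against 0.830 to 0.888 between a brain and a liver array. All 12 arrays shared 1 slide of 12 wells, in 3 rows of wells that each held both tissues.

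The titles' tissues were checked against marker genes. Of 12 neuronal markers 5 were measured, and 3 of them (Napb, Slc32a1 and Slc12a5) were higher in brain, with a summed intensity of 2242 to 2558 in brain arrays and 1850 to 2005 in liver arrays. Of 6 hepatocyte markers 4 were measured, and 3 (Ahcy, Lbp and Hnf4a) were lower in brain. The summed intensity was 1357 to 1570 in brain arrays and 3419 to 5092 in liver arrays, and Ahcy was the largest part of the liver sums. The 2 skeletal muscle markers measured summed to 482 to 535 in brain arrays and 460 to 563 in liver arrays, and the 5 seminal vesicle markers to 769 to 884 in brain arrays and 728 to 970 in liver arrays. None of these 7 passed. Of all genes 13.8% passed as higher and 12.6% as lower in brain. Other marker sets were mixed. Of 3 glial markers measured Cst3 was higher and Matn4 lower in brain, and of 7 epididymis and testis markers Cst11 was higher. Of 4 endothelial markers Cd93 and Ptgis were lower, and of 4 adipocyte markers 0 passed. In bulk tissue, fewer cells of a type and less RNA per cell cannot be told apart.

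Of the 341 genes, 90 differed between brain and liver, which is 26.4% of those tested. Brain was higher in 47 of them (13.8%) and lower in 43 (12.6%). Differences of at least 1 log2 unit were fewer: 6 genes were that much higher in brain (Cst3, Nnat, Snhg11, Napb, Fkbp1a and Abhd12) and 3 that much lower (B2m, Ahcy and Lbp), together 2.64% of the genes. The median difference over all genes was -0.0022. The groups of 6 did not overlap at all in 29 genes with brain higher (8.50%) and 18 genes with brain lower (5.28%). All 90 genes kept their direction within the congenic arrays alone and within the B6 arrays alone. Within well row A, which holds only congenic arrays, 90 of the 90 had that direction. Within each of rows B and C 89 had it. The calls were made on these same arrays, so a shared direction is largely built in and is no separate check. Row B holds only B6 brain replicate 3 from brain, and row C only B6 liver replicate 1 from liver. Scaling the arrays to a common median, in place of quantile normalization, gave 81 genes, of which 34 were higher in brain and 47 lower.

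**Figure D1:**
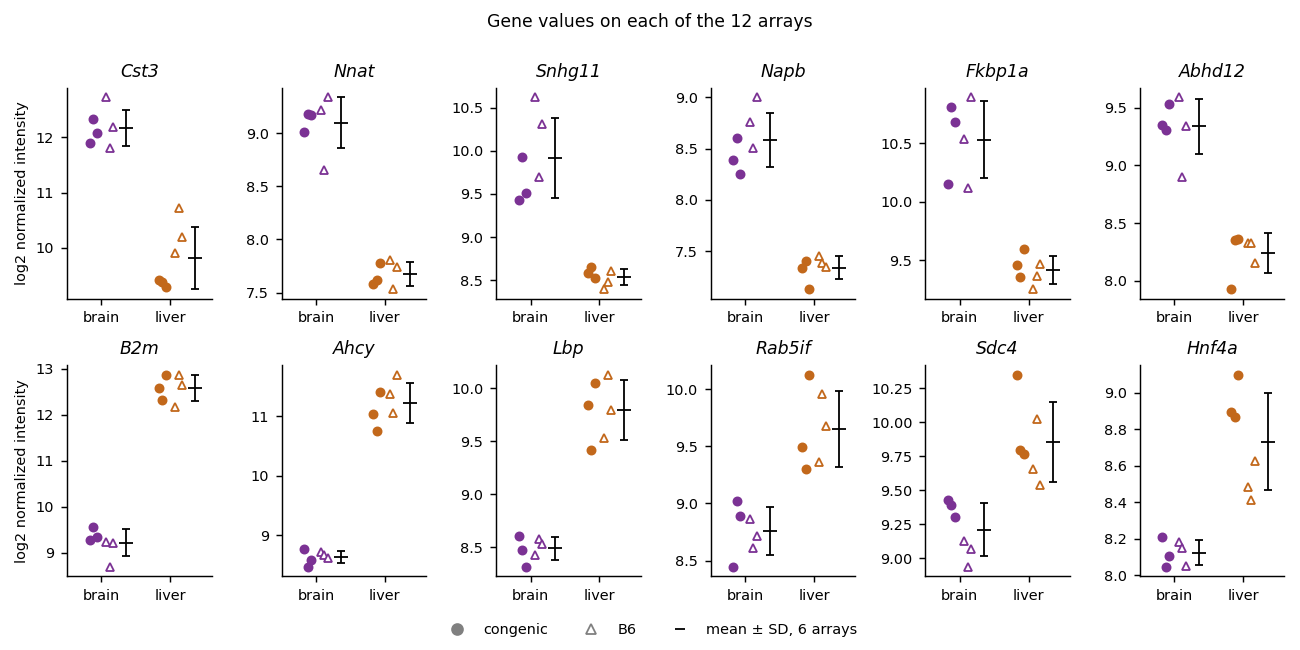
Log2 normalized intensity (y axis) of 12 genes on each of the 12 arrays, brain left of liver in each panel. Filled circles are congenic arrays, open triangles B6 arrays, and the bars are the mean ± SD of 6 arrays. In all 12 genes no brain value lies among the liver values, which follows from taking them among genes without overlap between the tissues.

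The gene with the largest rise in brain was Cst3 (chromosome 2, 148624290 to 148628027), which encodes cystatin C, a secreted inhibitor of cysteine proteases that astrocytes and choroid plexus make in quantity. Its log2 values in brain had a lowest of 11.82, a median of 12.14 and a highest of 12.73, against 9.30, 9.67 and 10.72 in liver. The lowest brain array was thus above the highest liver array. The difference was 2.36 ± 0.19 (SE), a 5.12-fold higher intensity in brain (limma, adjusted p = 4.98e-07). All 3 exon features of Cst3 passed, with differences of 2.18, 2.14 and 2.26, and the gene value, a median polish of the 3, need not lie between them. The gap was 2.74 in congenic and 1.97 in B6 mice, and the test of that difference between genotypes did not pass (limma interaction, 0.77 ± 0.32, adjusted p = 0.683).

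Nnat encodes neuronatin, a small membrane proteolipid of neural and endocrine cells whose gene is imprinted and lies inside the Blcap locus. It reached a lowest, median and highest of 8.66, 9.18 and 9.34 in brain, against 7.53, 7.68 and 7.81 in liver. All 7 of its exon features, several of which overlap in sequence, were higher in brain, and the gene difference was 1.42 ± 0.10 (limma, adjusted p = 1.84e-07). The host gene Blcap, listed on the opposite strand and named here because of that overlap, had a difference of 0.05 ± 0.09, which did not pass (limma, adjusted p = 0.754). Snhg11, a noncoding RNA that hosts a small nucleolar RNA, had brain values of 9.44, 9.81 and 10.62 and liver values of 8.40, 8.55 and 8.66 in the same order. The difference was 1.38 ± 0.16 (limma, adjusted p = 2.11e-05), and the 6 brain arrays spread more than the 6 liver arrays, with an SD of 0.47 and 0.09.

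Napb encodes beta-SNAP, the brain form of the adaptor that recycles SNARE complexes after vesicle fusion. Its lowest, median and highest values were 8.26, 8.55 and 9.003 in brain, against 7.13, 7.36 and 7.45 in liver, with a difference of 1.25 ± 0.09 (limma, adjusted p = 1.91e-07). Without background correction the same difference was 0.78, and it still passed. Fkbp1a, the FK506-binding immunophilin that also associates with calcium release channels, had 10.11, 10.60 and 10.89 in brain, against 9.25, 9.41 and 9.60 in liver. Its difference was 1.11 ± 0.13 (limma, adjusted p = 1.98e-05), and all 5 of its exon features passed. Abhd12, a lipase that degrades lysophosphatidylserine, was higher in brain by 1.09 ± 0.11 (limma, adjusted p = 6.46e-06), with 8.90, 9.34 and 9.59 in brain and 7.93, 8.33 and 8.37 in liver.

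Among genes that passed without overlap between the tissues, the other 9 of the 15 farthest above 0 were higher in brain by 0.51 to 0.96 log2 units. Ndrg3, of the N-myc downstream-regulated family, was higher by 0.76 ± 0.05 (limma, adjusted p = 2.92e-08), and its values hardly varied, from 9.57 to 9.75 in brain and from 8.79 to 8.95 in liver. Dbndd2, a dysbindin-domain protein gene, was higher by 0.71 and the nucleosome assembly relative Tspyl3 by 0.65. Vstm2l, which encodes a secreted immunoglobulin-domain protein, was higher by 0.52, and 3300002I08Rik by 0.51. The remaining 4 were transcripts without a symbol in the annotation. AF303451 (0.96) and AF303452 (0.88) lie at nearly the same positions, 144874760 and 144874769 to 144875447, and AF483512 (0.76) and BC057348 (0.63) overlap each other. These 4 therefore represent 2 loci.

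The gene farthest below 0 in brain was B2m, the light chain of class I antigen-presenting molecules, at chromosome 2, 121896708 to 121901894. Brain arrays had a lowest, median and highest of 8.70, 9.25 and 9.57, against 12.17, 12.61 and 12.87 in liver arrays. The 2 sets of values were separated by more than the whole range of either. The difference was -3.36 ± 0.14 (limma, adjusted p = 1.05e-09), a 10.3-fold lower intensity in brain, and the 4 exon features had differences between -3.78 and -2.70. Ahcy encodes the enzyme that splits S-adenosylhomocysteine and so keeps the methionine cycle turning, a pathway concentrated in liver. It had 8.48, 8.65 and 8.77 in brain, against 10.75, 11.21 and 11.70 in liver, a difference of -2.58 ± 0.12 (limma, adjusted p = 2.41e-09). All 12 of its features had lower means in brain and 11 passed, and the intensity was 5.96-fold lower for the gene as a whole.

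Lbp encodes the acute-phase protein that hepatocytes secrete to carry bacterial lipopolysaccharide. Its values were 8.32, 8.50 and 8.61 in brain and 9.42, 9.82 and 10.13 in liver, and the difference was -1.30 ± 0.11 (limma, adjusted p = 1.08e-06). Sdc4, a heparan sulfate proteoglycan of the cell surface, was lower in brain by 0.64 ± 0.10 on the log2 scale (limma, adjusted p = 4.00e-04), with 8.94, 9.22 and 9.43 in brain and 9.53, 9.78 and 10.35 in liver. Hnf4a had 8.05, 8.13 and 8.21 in brain, against 8.41, 8.75 and 9.10 in liver. Its difference was -0.61 ± 0.08 (limma, adjusted p = 9.81e-05), and it was -0.83 in congenic and -0.38 in B6 mice. That gap between genotypes did not pass when tested (limma interaction, -0.45 ± 0.12, adjusted p = 0.362), although it passed in the authors' deposited probe values and in a fit with all 24 samples.

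Of the other 10 of the 15 genes farthest below 0 under the same rule, Rab5if, a gene linked to endosomal Rab5 and to respiratory chain assembly, had the largest difference, -0.89 ± 0.14 (limma, adjusted p = 4.00e-04). The beta-defensin gene Defb29 had -0.85, the cystatin-related gene Cstdc2 -0.61 and the symbol-less transcript AF114493 -0.61. AK040896 (-0.45) and AK076437 (-0.32) also lack a symbol. Trp53tg5, a target gene of p53, had -0.26, a call that held in 18 of 25 alternative settings, and 0 of its 5 features passed on their own. H13, the intramembrane signal peptide peptidase, had -0.21, the zinc finger gene Zfp341 -0.18 and the phosphatidate phosphatase Lpin3 -0.18. In the authors' deposited probe values Defb29 had a difference of -0.05 and did not pass, and Cstdc2 had -0.22 and passed. With the 3′ feature alone Cstdc2 had -0.24 and did not pass. Each of them passed in 24 of 25 alternative settings. Over the 15 genes above 0, 86 of 113 exon features passed as higher and 0 as lower. Over the 15 below 0, 63 of 128 passed as lower and 1, in H13, as higher.

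**Figure D2:**
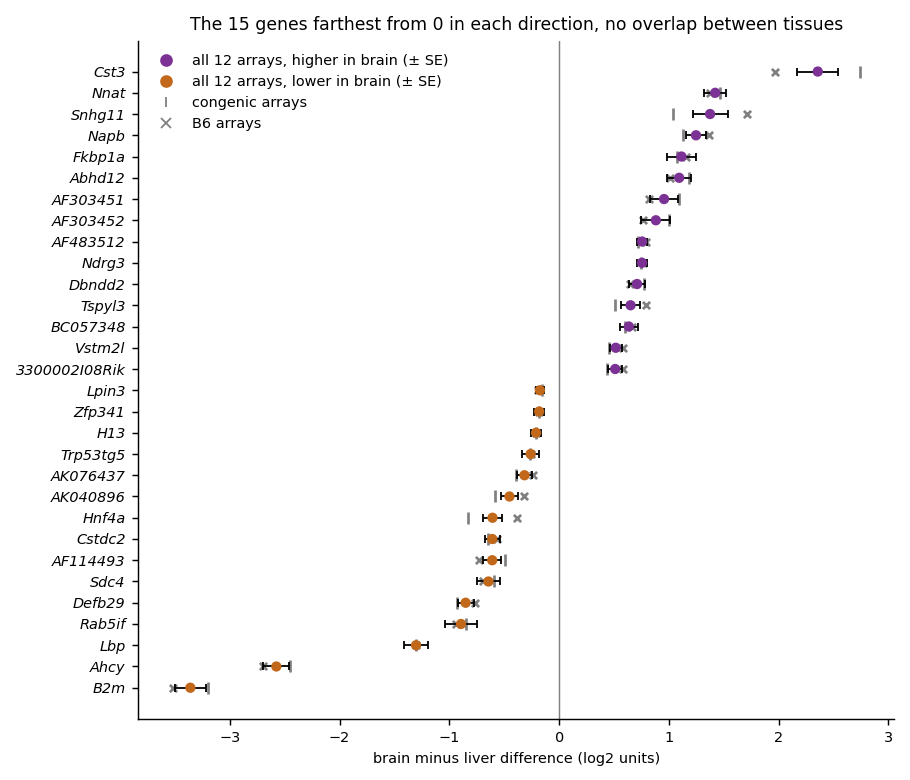
Brain minus liver difference in log2 units (x axis, dots with SE) of the 15 genes farthest from 0 in each direction among those that passed and whose groups did not overlap, with the congenic arrays alone as bars and the B6 arrays alone as crosses. The dots run from 2.36 (Cst3) to -3.36 (B2m). Both genotypes lie on the same side of 0 in each gene, which the rule of no overlap fixes in advance.

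Promoter sequence from RefSeq (build GRCm38.p6, which is not known to be the build of the array's coordinates) was available for 7 of the 15 genes above 0 and 11 of the 15 below. The windows span 250 bases before to 50 after the annotated start. They are shown for 2 leading genes of each direction, because these transcripts differed most between the tissues. Both starts of Hnf4a, a liver regulator that passed, are shown as well. Capitals mark matches to 5 motifs on either strand. The core promoter motifs were TATAAA of the TATA box, the CCAAT box and GGGCGG of the GC box. The liver motifs were GTTAAT, part of the site of the regulator HNF1, and CAAAGTCCA, a site of HNF4 itself. No match overlapped a match to another motif in the windows shown.
Cst3, chr2:148875463-148875762, minus strand: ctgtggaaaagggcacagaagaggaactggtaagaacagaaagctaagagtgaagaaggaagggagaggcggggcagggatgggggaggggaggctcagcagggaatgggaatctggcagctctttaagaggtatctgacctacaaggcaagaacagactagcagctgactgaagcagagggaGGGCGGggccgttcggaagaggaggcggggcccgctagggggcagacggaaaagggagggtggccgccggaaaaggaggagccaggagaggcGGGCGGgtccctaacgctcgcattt
Nnat, chr2:157559828-157560127, plus strand: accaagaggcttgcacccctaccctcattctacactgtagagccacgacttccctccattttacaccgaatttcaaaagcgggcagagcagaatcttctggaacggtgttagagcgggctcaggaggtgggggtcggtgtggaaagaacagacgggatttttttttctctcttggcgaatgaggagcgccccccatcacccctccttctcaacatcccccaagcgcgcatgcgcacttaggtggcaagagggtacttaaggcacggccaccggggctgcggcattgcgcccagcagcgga
B2m, chr2:122147437-122147736, plus strand: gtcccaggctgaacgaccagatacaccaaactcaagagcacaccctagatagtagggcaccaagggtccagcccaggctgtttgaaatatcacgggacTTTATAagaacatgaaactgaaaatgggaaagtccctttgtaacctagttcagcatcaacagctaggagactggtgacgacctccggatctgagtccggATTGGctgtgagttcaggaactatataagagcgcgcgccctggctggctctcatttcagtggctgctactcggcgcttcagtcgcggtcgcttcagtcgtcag
Ahcy, chr2:155074448-155074747, minus strand: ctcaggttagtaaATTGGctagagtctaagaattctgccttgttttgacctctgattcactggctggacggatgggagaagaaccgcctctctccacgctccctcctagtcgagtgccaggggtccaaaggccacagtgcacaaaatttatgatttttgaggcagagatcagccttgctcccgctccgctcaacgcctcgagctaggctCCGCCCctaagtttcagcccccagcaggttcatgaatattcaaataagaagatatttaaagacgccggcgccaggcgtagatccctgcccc
Hnf4a, first start, chr2:163506607-163506906, plus strand: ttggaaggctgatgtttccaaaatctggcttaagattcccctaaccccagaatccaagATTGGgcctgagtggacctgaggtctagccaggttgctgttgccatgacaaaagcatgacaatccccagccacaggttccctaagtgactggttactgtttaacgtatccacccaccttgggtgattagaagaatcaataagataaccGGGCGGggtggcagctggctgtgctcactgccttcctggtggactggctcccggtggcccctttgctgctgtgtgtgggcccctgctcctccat
Hnf4a, second start, chr2:163546905-163547204, plus strand: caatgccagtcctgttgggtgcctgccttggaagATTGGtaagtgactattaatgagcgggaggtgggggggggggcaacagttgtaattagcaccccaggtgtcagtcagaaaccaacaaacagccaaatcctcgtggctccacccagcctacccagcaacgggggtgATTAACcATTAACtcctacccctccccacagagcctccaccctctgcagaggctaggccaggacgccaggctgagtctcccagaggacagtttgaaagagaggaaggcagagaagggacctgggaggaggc

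Cst3 held 2 GC boxes and Nnat none of the 5 motifs. B2m held the letters of a TATA box on the opposite strand and a CCAAT box, and Ahcy and the first Hnf4a start held a CCAAT box and a GC box. The second Hnf4a start held a CCAAT box and 2 copies of GTTAAT. Among all 32851 mouse promoters of this length, the HNF1 letters occurred in 7.10%, the TATA box in 13.6%, the CCAAT box in 37.4%, the GC box in 35.7% and the HNF4 site in 0.475%. The GC box occurred in 25 of 40 promoters of genes higher in brain and in 17 of 35 of genes lower in brain, against 51.7% of the 302 promoters of measured genes. The CCAAT box occurred in 10 of the 40 and 17 of the 35, against 32.1% of the 302. The HNF1 letters occurred in 0 of the 40 and 1 of the 35, against 3.64% of the 302, and the HNF4 site in 0 of the 302. These counts describe the letters of the windows and were not tested.

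The genes were also grouped by function, and the counts stand beside the 26.4% of all genes that passed, 13.8% higher and 12.6% lower in brain. Members and lists were chosen with earlier results of these data known. A gap between a list and these shares is therefore descriptive and was not tested. Of 19 measured genes on the synapse and neuronal membrane list, 10 were higher in brain, against 13.8% of all genes. Of the list 0 were lower and 9 did not pass, and its median difference was 0.16 against -0.0022 for all genes. Nnat, Snhg11, Napb and Ndrg3 led this list, which is wider than its name, since Snhg11 is a noncoding RNA. Of 7 genes of hepatocyte identity and secretion, 4 (Ahcy, Lbp, Sdc4 and Hnf4a) were lower in brain, against 12.6% of all genes, 0 were higher and 3 did not pass, with a median of -0.61. Those 3 were Foxa2 (-0.19), Trib3 (-0.06) and Pltp (0.02), named here to complete the list after their values were seen. The 3 glial genes were divided: Cst3 was higher in brain, the matrilin gene Matn4 was lower by 0.25 on the log2 scale (limma, adjusted p = 0.00821), and Nkx2-2, a regulator of oligodendrocyte precursors, had -0.12 and did not pass.

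Metabolic lists held genes of both directions. Of 15 genes for lipid enzymes and carriers, Abhd12 was higher in brain and 5 were lower: Lbp, the peroxisomal thioesterase Acot8 (-0.35), the peroxisomal membrane protein gene Pxmp4 (-0.24), Lpin3 (-0.18) and the prostacyclin synthase Ptgis (-0.14). Of all genes 13.8% were higher and 12.6% lower. The call of Ptgis held in 11 of 25 alternative settings and that of Pxmp4 in 16. Of 5 genes for methionine, glutathione and redox metabolism, the gamma-glutamyltransferase relative Ggt7 was higher by 0.47 ± 0.05 (limma, adjusted p = 1.70e-05) and Ahcy lower, while Gss (-0.13), Nfs1 (-0.10) and Srxn1 (-0.04) did not pass. Of 7 mitochondrial genes, the complex I assembly factor Ndufaf5 (0.32) and the import factor Tomm34 (0.21) were higher in brain and the small inner membrane protein gene Romo1 (-0.39) was lower.

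Of 21 genes for vesicle traffic, autophagy and ubiquitin, 6 were higher in brain and 1 was lower, with a median of 0.08. These 7 of 21 stand against 26.4% of all genes, and nothing is read from that gap. After Napb the largest were the dynein light chain Dynlrb1 (0.72), the autophagosome protein gene Map1lc3a (0.33) and the engulfment adaptor Elmo2 (0.30). The brain and liver values of Dynlrb1 and Map1lc3a overlapped, whereas those of Elmo2 did not. In 17 genes for RNA processing and translation only the nuclear export receptor Cse1l passed (0.20, higher in brain). In 11 cell division genes, the microtubule end-binding protein gene Mapre1 (0.37) was higher and the spindle factor gene Tpx2 (-0.17) lower. The call of Tpx2 held in 18 of 25 alternative settings, and with the 3′ feature alone its value was 0.013.

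Among 11 immune genes B2m stood far from the rest. The adaptor Sla2 (-0.28) and the C1q receptor relative Cd93 (-0.26) were also lower in brain, the phospholipase Plcg1 (0.18) was higher, and 7 did not pass. Of the marker genes of immune cells 6 were measured, and their summed intensity was 2079 to 2312 in brain arrays and 6458 to 9154 in liver arrays, and B2m was the largest part of the liver sums. Cd93 and Ptgis were the 2 of 6 endothelial genes that passed, both lower in brain. Of all genes 26.4% passed, and nothing is read from the immune or endothelial count. The call of Cd93 held in 24 of 25 alternative settings, and with the 3′ feature alone its value was -0.0088. The 3′ ends of Sla2 and Rab5if, which lie on opposite strands, overlap in the annotation.

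Genes of other tissues were measured as well. Of 6 seminal vesicle genes and 3 skeletal muscle genes 0 passed in limma, and 0 had an unadjusted p under 0.05, with medians of -0.03 and -0.01. Of 13 genes of epididymis and testis, 9 did not pass, Cst11 was higher in brain by 0.21, and Defb29, Cstl1 (-0.49) and Defb19 (-0.30) were lower. These 4 of 13 are near the 26.4% of all genes. The call of Defb19 held in 14 of 25 alternative settings. Of 4 reference genes, Tbp (-0.02), Gusb (-0.05) and Hprt (0.56) did not pass, and the cyclophilin gene Ppia was higher in brain by 0.97 ± 0.18 (limma, adjusted p = 0.00137). Ppia values overlapped between tissues, with a lowest of 11.24 in brain against a highest of 11.58 in liver. Ppia has many processed copies in the genome, and whether they added to its signal was not tested. The call of Ppia held in 23 of 25 alternative settings. It was lost under median scaling without background correction (0.54) and with the 3′ feature alone (0.65). Rplp0, a ribosomal protein gene also in use as a reference, is outside this list and is named after its values were seen. It lay the other way, with a lowest, median and highest of 9.58, 9.91 and 10.13 in brain, against 10.06, 10.67 and 10.70 in liver.

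**Figure D3:**
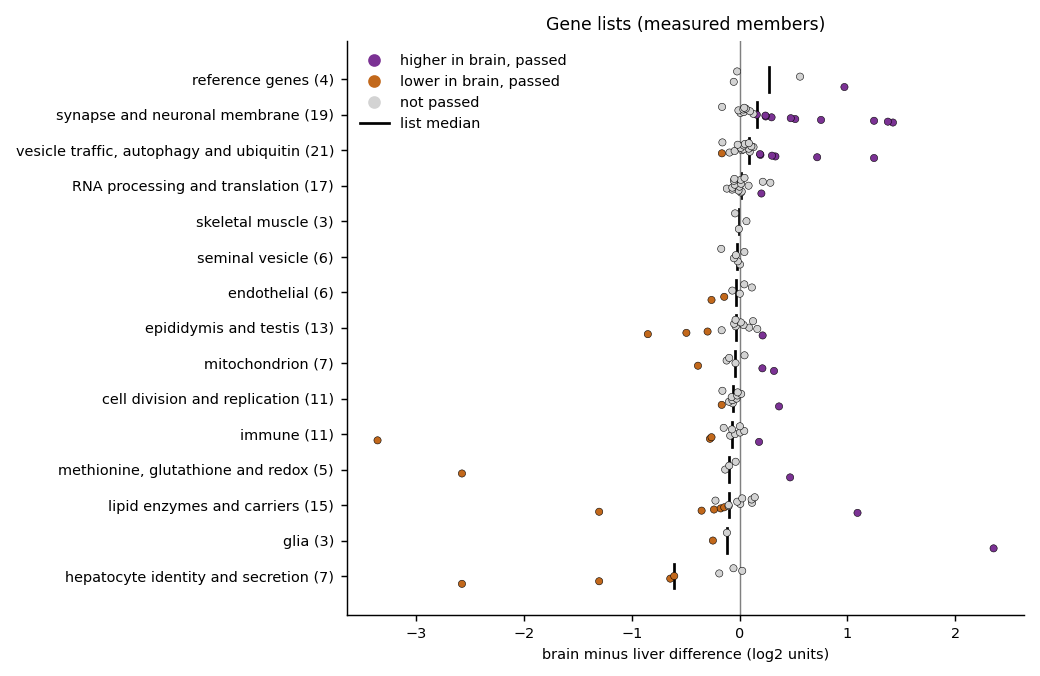
Brain minus liver difference in log2 units (x axis) of each measured member of 15 gene lists (rows, number measured in brackets), with a black bar at the list median. Coloured dots passed the threshold, purple higher and orange lower in brain, and grey dots did not. The hepatocyte list has the lowest median, -0.61, and the synapse list has 10 coloured dots, all to the right of 0. The lists were chosen with earlier results of these data known.

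The array reads exons separately, so the difference was also tested for each of 3099 exon features. Of these, 558 (18.0%) passed, 300 (9.68%) higher in brain and 258 (8.33%) lower. At least 1 log2 unit of difference was reached by 131 features that passed, 75 higher and 56 lower in brain, in 61 genes. Of those 61 genes, 22 did not pass as genes and held 25 of the features. In 44 genes some features passed as higher and others as lower. Whether a feature departed from the rest of its gene was tested with diffSplice in limma for 3072 features of 314 genes. It found 450 departures (14.6%), 222 above (7.23%) and 228 below (7.42%) the rest of the gene. A test on each array's own gap between the feature and its gene gave 455, and 327 were called by both in the same direction. Since diffSplice treats the features of a gene as independent, its p-values are too small where features share samples or sequence.

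The feature that departed most was the last exon feature of Slc12a5, the potassium and chloride cotransporter that keeps chloride low in mature neurons. This feature of 1060 bases (chromosome 2, 165061781 to 165062840) had a lowest, median and highest of 10.23, 11.28 and 11.68 in brain, against 7.12, 7.74 and 7.94 in liver. Its difference was 3.54 ± 0.18, against 0.24 ± 0.04 for the gene as a whole, and it departed from the other 28 features by 3.33 ± 0.16 (limma diffSplice, adjusted p = 5.49e-54). Of those 28, 9 passed as higher and 3 as lower in brain. The feature just before it overlaps it in sequence and had 1.33.

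Several other genes showed the same arrangement, with the 3′ end far above the rest in brain. The last feature of Ndrg3 (156990694 to 156992230) had a difference of 3.08 ± 0.15 against 0.76 for the gene, with 10.88 to 11.84 in brain and 8.11 to 8.80 in liver. Another feature that starts 1 base away repeats that sequence and had 2.75. The last feature of Snhg11 (158444287 to 158444939) had 3.18 ± 0.34 against 1.38. In Snph, which encodes the mitochondrial anchor syntaphilin of axons, the last feature of 4051 bases (151653898 to 151657948) had 2.37 ± 0.18 against 0.24. The last feature of the symbol-less BC057348 (143565303 to 143568259) had 2.97 ± 0.15 against 0.63. In Slc24a3, a potassium-dependent sodium and calcium exchanger, the gene as a whole did not pass (0.06 ± 0.05, limma, adjusted p = 0.443). Its last feature (145392193 to 145393916) had 8.40 to 8.98 in brain and 6.49 to 7.11 in liver, a difference of 1.94 ± 0.14 (limma, adjusted p = 1.41e-07). Without background correction the departure of this feature from its gene fell from 1.95 to 1.23. That of the last Snph feature fell from 2.14 to 1.39, and both still passed.

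**Figure D4:**
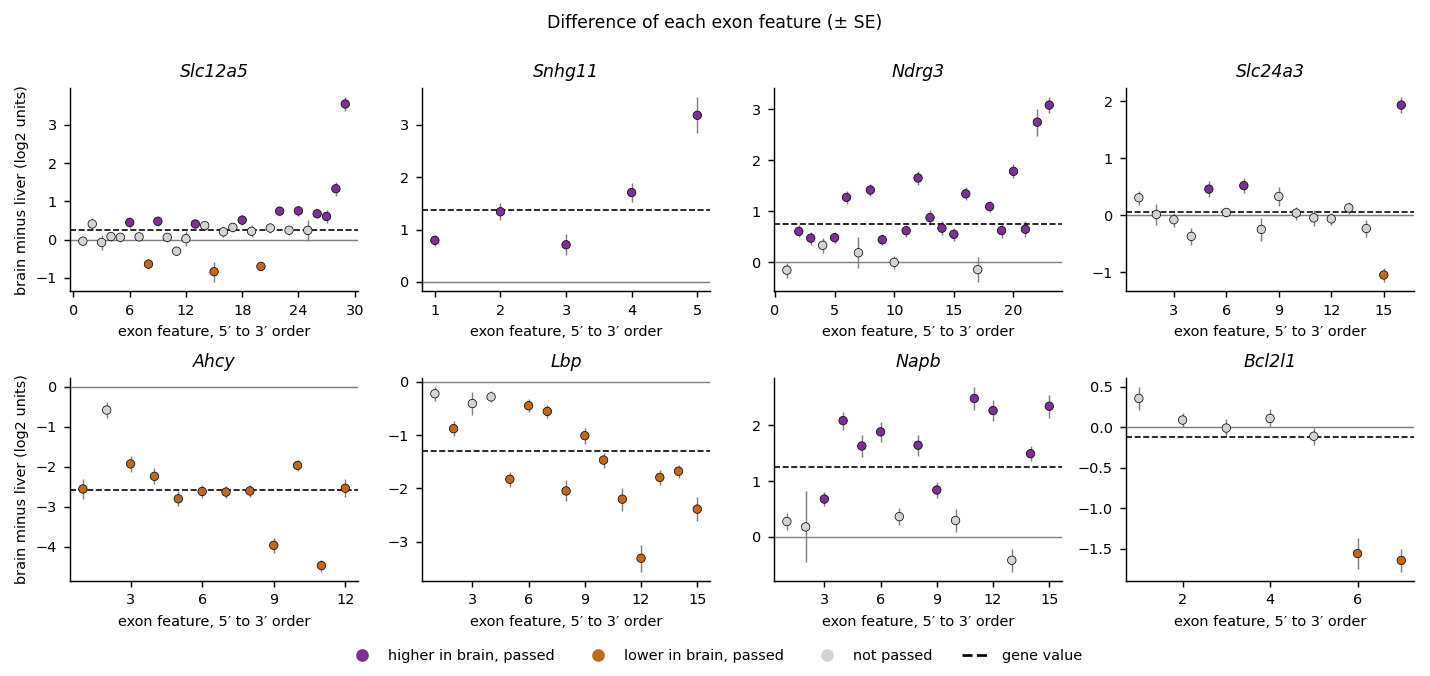
Brain minus liver difference in log2 units (y axis, dots with SE) of each exon feature, in 5′ to 3′ order along the transcript (x axis), for 8 genes. Purple and orange dots passed as higher and lower in brain, grey dots did not, and the dashed line is the gene value. In the 4 upper genes the last feature is the highest, at 1.94 to 3.54, and in Bcl2l1 only the last 2 features lie far below 0.

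The position of the departing features was then counted. In the 281 genes with at least 3 features, 9.35% of the 3006 features are the 3′ end of their gene. Of the 32 features that departed upward by at least 1 log2 unit, 12 were 3′ ends, and of the 33 that departed downward 4 were. In the 71 genes of this size that passed as genes, the median absolute difference was 0.61 for the 3′ feature and 0.30 for the others. Over all 281 genes of this size the medians were closer, 0.22 and 0.18. The 3′ feature lay farther from 0 than the gene value in 47 of the 71. How often other features did so was not counted. The 3′ features are long, with a median of 668 bases against 128 for the others. Labelled RNA was made from cDNA by T7 transcription, and the priming of that cDNA is not given in the labels; the parts of length and priming in this pattern were not tested. With the 3′ feature alone as the value of each gene, 102 genes passed, 56 of them higher in brain, and 59 of these were among the 90.

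Genes lower in brain were uneven as well. In Ahcy, a feature of 851 bases near the 3′ end (155123079 to 155123929) had 7.48, 7.83 and 8.35 in brain, against 11.87, 12.39 and 12.61 in liver. Its difference of -4.47 ± 0.15 departed from the rest of the gene by -2.07 ± 0.22 (limma diffSplice, adjusted p = 1.14e-13), and another feature of 119 bases (155127128 to 155127246) had -3.96 ± 0.18. By contrast the second feature of Ahcy (155132176 to 155132367) had a difference of -0.58 ± 0.20, which did not pass on its own (limma, adjusted p = 0.0639), with 10.10 to 11.03 in brain and 10.75 to 12.01 in liver. In Lbp, an exon of 44 bases (158389576 to 158389619) had 6.05 to 6.40 in brain and 8.60 to 10.53 in liver, a difference of -3.31 ± 0.25. Without background correction the departure of this exon from its gene was -1.33 in place of -2.08. That of the Ahcy feature of 119 bases was -0.85 in place of -1.52, and both still passed. The 2 features of Defb29 disagreed. Its 3′ feature (152602062 to 152602369) had -1.88 ± 0.17 and its 5′ feature (152603292 to 152603390) 0.18 ± 0.11, so the gene value of -0.85 rests on the 3′ feature.

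Some genes that did not pass as a whole held single features that were lower in brain. In Ralgapb, a subunit of the complex that inactivates Ral GTPases, 1 feature of 149 bases (158507921 to 158508069) had 7.35 to 8.05 in brain and 8.87 to 9.70 in liver, a difference of -1.70 ± 0.18 against 0.06 for the gene. In the cilium gene Cfap61 a feature of 100 bases (145847602 to 145847701) had -1.76 ± 0.12 against 0.01. In Tm9sf4, a nonaspanin of the endomembrane system, a feature of 91 bases (153267883 to 153267973) had -1.38 ± 0.13 against 0.05. In Napb, which did pass, a feature of 327 bases (148448213 to 148448539) had -0.42 ± 0.20 and did not pass, while its overlapping and neighbouring features had 1.49 to 2.48. Bcl2l1, which encodes the survival protein Bcl-x, fell outside the naming rule and was chosen after its values were seen. Its first 5 features had differences between -0.11 and 0.35 and did not pass, and its last 2 had -1.56 and -1.64 and did, while the gene had -0.12 (limma, adjusted p = 0.123).

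The difference between tissues was then compared between genotypes. Across the 341 genes the difference in congenic mice correlated with that in B6 mice at Pearson r = 0.916, which describes genes within the same arrays and not independent replicates. The median absolute gap between the genotypes was 0.09 log2 units. The interaction of tissue and genotype passed in 1 gene (0.293%), Serinc3, which encodes a membrane protein that takes part in antiviral defence. At an unadjusted p under 0.05 the interaction count was 19.

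In congenic mice Serinc3 had 9.52, 9.64 and 9.75 in brain, against 9.07, 9.05 and 9.21 in liver, and the brain arrays were all higher. In B6 mice it had 9.51, 9.16 and 9.39 in brain, against 9.58, 9.59 and 9.71 in liver, and the brain arrays were all lower. The difference between brain and liver was 0.53 in congenic and -0.27 in B6 mice, so that the interaction was 0.80 ± 0.13 (limma, adjusted p = 0.0213). The sign of the gap between genotypes was positive in 10 of the 11 features of the gene, with a median of 0.87. The call was lost with median scaling (0.66, limma, adjusted p = 0.417), with the mean of features (0.63, adjusted p = 0.0823) and in the authors' deposited probe values (0.47, adjusted p = 0.334), and the adjusted p ranged from 0.00287 to 0.897 over 22 alternatives. It was also lost without either of 2 B6 liver arrays (replicates 1 and 2) and without any 1 of the 3 congenic liver arrays, with values of 0.71 to 0.79.

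**Figure D5:**
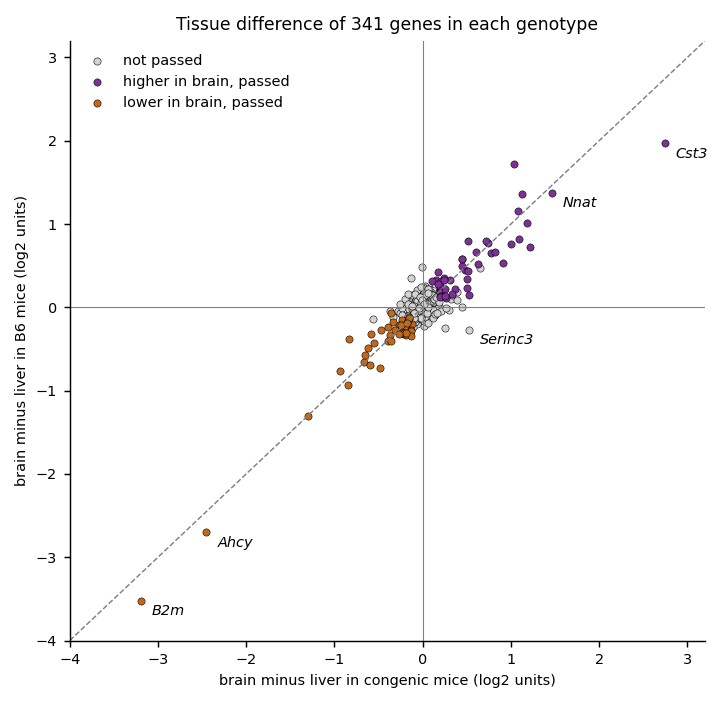
Brain minus liver difference in log2 units in congenic mice (x axis) and in B6 mice (y axis) for 341 genes, with a dashed line where they are equal. Coloured dots passed in the comparison of tissues. Serinc3 lies at 0.53 and -0.27, on opposite sides of 0. Cst3, Nnat, Ahcy and B2m share a sign in both genotypes, as genes without overlap between the tissues must.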

How the data were processed

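RNA of whole brain and liver was hybridised to a custom 1-colour NimbleGen array, per the labels' protocols. The deposited per-sample files hold the mean perfect-match intensity of the probes of an exon on a linear scale, per the file headers: 3919 rows from 13388 probes, 2 to 14 probes per row, with no mismatch signal subtracted. The submitters' processing notes name RMA. No genome build of the coordinates is stated in these sources. The deposited value table holds the authors' normalized probe intensity and covers 301 genes by symbol. Its centring stays unknown.

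Background was removed with normexp (offset 50) in limma 3.58.1 under R 4.3.3, and quantile normalization of the 12 arrays and log2 followed. Rows with identical coordinates were averaged into 3099 features, and median polish gave 1 value for each of 341 genes: 301 with a symbol, 300 of which a RefSeq table held, and 40 transcripts without. The fits had tissue and genotype as terms, and the interaction was tested in addition. Departures were tested with diffSplice in the 314 genes with more than 1 feature. Adjusted p under 0.05 (Benjamini-Hochberg) was the threshold.

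In simulated data with 40 genes changed by 1 log2 unit, 40 were recovered and 2 of 241 others were called. Of 60 features changed by 1.5 units 59 were recovered, and 23 of 2329 others were called. Whether these rates hold for the measured arrays, where features of a gene can share samples or sequence, was not tested.

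The text names the 15 genes farthest from 0 in each direction that passed without overlap, up to 4 passing members of each list, every member of lists of up to 5, genes that passed the interaction test, and 8 departing features per direction, at most 2 per gene. Exceptions are marked. Members and lists were chosen with earlier results of these data known. The design text calls replicates biological, and whether a mouse gave both of its tissues is not stated. Same-numbered brain and liver samples deviated together with correlations of -0.30 to 0.13, so the numbers were not taken as pairs. The alternatives were background correction, normalization, summarization, a filter on dim features, the genotype term, the other tissues, and leaving out each array. Blocks of same-numbered brain and liver arrays within a genotype, and blocks for well row, were also alternatives.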

Additional observations from a re-analysis of the deposited data

Results flagged for a closer look

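The tissue difference of Serinc3 was opposite in the genotypes: the gap between brain and liver in congenic mice exceeded that in B6 mice by 0.80 log2 units in a test of that difference (limma interaction, adjusted p = 0.0213).

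A single array stood apart from the other 5 of its tissue in 6 of 126 sets of 6 values examined, about as often as the 1 in 20 that chance gives. Before normalization, congenic brain replicate 2 had a median raw intensity of 1237, and the next brightest brain array had 511. Congenic liver replicate 3 was lowest for Napb, at 7.13 against 7.33 for the next. Congenic liver replicate 1 was highest for Lpin3, at 9.29 against 9.21, and congenic liver replicate 2 was highest for Ndufaf5, at 8.35 against 8.12. Congenic brain replicate 3 was lowest for Gss, at 8.42 against 8.56. B6 liver replicate 1 was lowest for Cstl1, at 7.56 against 8.01.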

How the results depend on the processing

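Over 11 planned settings, 3 added after seeing the data and 12 fits without 1 array each, the count of genes that differed lay between 74 and 110. Leaving out each array in turn gave 79 to 103 genes, 464 to 560 exon features and 362 to 455 departing features. Without both congenic brain replicate 2, the brightest array, and B6 liver replicate 2, the dimmest, 74 genes passed, 44 higher in brain. With neither background correction nor quantile normalization 257 features departed from their gene, 111 of them upward, in place of 450. Normalization also moved the share of genes higher in brain: 42.0% with median scaling and 41.2% without background correction in addition, against 52.2%. The count for the interaction of tissue and genotype was 0 with median scaling, alone or without background correction, and with the mean of features, 2 in the authors' deposited value table (Hnf4a and Tspyl3, named after seeing this) and 2 with all 24 samples in the fit (Serinc3 and Hnf4a), and 0 to 1 when 1 array was left out. The cause of these changes was not tested. With the 3′ feature as the gene value 6 named genes turned in sign: Plcg1 (-0.24), Tpx2 (0.013), H13 (0.15), Acot8 (0.093) and Ptgis (0.013), which lost their calls, and Tnnc2 (0.33), which gained one. With the same-numbered brain and liver arrays of a genotype as a block, 87 genes, 489 features, 428 departures and 1 interaction passed. The 9 genes that differed by at least 1 log2 unit passed under each alternative that was run. Of the 51 named genes that passed, 9 lost the call without some single array: Defb19, Ptgis and Pxmp4 without 8 or 9 of the 12 arrays each, Tpx2, Map1lc3a and Trp53tg5 without either of 2 brain arrays, Sla2 without congenic brain replicate 2, Matn4 without congenic brain replicate 3 and Zfp341 without B6 liver replicate 1. Napb had 0.78 without background correction.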
